A study of Mus musculus with 4 samples.

Results

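Gene expression of intestinal tumor organoids 4 days after the start of 5-Aza-CdR treatment was compared with that of untreated organoids, on 1 array each. The comparison covered every gene that was named on the array and had a deposited value on both arrays, which was 14922 of 16446 named genes. A gene was described as higher or lower when its intensities differed at least 2-fold and the brighter of them was at least 100, and 5245 genes reached that intensity. The other 9677 genes were dimmer and are given only as values. Because genes of the interferon response have long been linked to this drug, the genes outside that response are described here in most detail.

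5-Aza-CdR (5-aza-2′-deoxycytidine, decitabine) is a cytidine analog that dividing cells build into their DNA. It traps DNA methyltransferases, above all Dnmt1, so that methylation is lost as cells go on to divide, and the trapped enzyme also damages DNA. Genes with methylated promoters, among them germline genes and endogenous retroviruses, can then be transcribed. The intestinal epithelium that organoids model is renewed by Lgr5-positive stem cells, which give rise to absorptive enterocytes and to the secretory goblet, Paneth, enteroendocrine and tuft cells, and after injury it passes through a regenerating state with a fetal-like set of genes.

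The organoids came from intestinal polyps of ApcMin mice, whose Apc mutation activates Wnt signaling, and grew in Matrigel in serum-free medium with EGF and Noggin. Both cultures carried this genotype and medium, and they differed in the 1 μM of 5-Aza-CdR, which the treated culture received for 24 hours. The 2 other arrays of the study, a control shRNA culture carrying an empty lentiviral vector and a Dnmt1 knockdown culture at day 9, are used here only as values beside the comparison. Each condition was 1 culture and 1 single-color (Cy5) array, so no difference has a replicate error, no test was possible, and the number of arrays limits the precision.

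An intensity here is the value that the authors deposited, which is the signal of a spot above the blank spots, scaled so that the median of each array was 25. Of 23473 probes, 20892 had a value in the untreated control and 21797 with 5-Aza-CdR. The 1102 spots without a probe gave a 95th percentile of 2.42 and 1.9 on the same scales, so an intensity of 100 lies far above them. Probes of the same gene offered a measure of technical spread within these 2 arrays, and over 24 genes with 51 probes the SD of their log2 ratios was 0.29. The untreated control and the control shRNA array differed more from each other than the treated array did from its control. Over the genes described, the SD of the log2 ratio was 0.59 for 5-Aza-CdR over the untreated control and 1.07 for the control shRNA over the untreated control. Both cultures were epithelial by their markers. The epithelial adhesion gene Tacstd1 (Epcam) measured 7627 in the control and 7199 with 5-Aza-CdR, E-cadherin (Cdh1) had 1455 and 2323, and the leukocyte marker Ptprc had 3.38 and 2.91. The fibroblast gene Col1a1 had 6.93 and 5.4, and the endothelial gene Pecam1 had 0.91 and 0.9. Most markers of other cell types were likewise under 100 on both arrays, 22 of 25 for immune, 27 of 33 for mesenchymal and 12 of 14 for endothelial cells, but some were bright. The immune markers above it were Cd14, with 169 and 318, Ly6g, with 105 and 192, and Cd68, with 194 and 178. The endothelial ones were Flt1, with 111 and 361, and Egfl7, with 270 and 147, and the mesenchymal ones are given below with the matrix genes. The summed immune markers were 677 in the control and 894 with 5-Aza-CdR, the endothelial 563 and 696, and the mesenchymal 3362 and 3010. Most of the mesenchymal sum in the control came from 1 gene, Vim, with 2544 there and 559.6 with 5-Aza-CdR. Of the 33 mesenchymal markers, 26 were brighter with 5-Aza-CdR, so that sum does not show their common direction. The part of these immune, endothelial and mesenchymal markers in the results was not tested.

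The intensities of 241 genes (4.59% of 5245) were 2-fold or more above the control after 5-Aza-CdR, and those of 109 (2.08%) were 2-fold or more below it. The typical gene was slightly brighter on the treated array, with a median log2 ratio of 0.17, and the lists below are to be read against that value. The median was lower for bright genes, from 0.20 among genes of 100 to 200 to -0.13 among the 126 genes of the brightest class. For lists of bright genes, such as ribosomal proteins, the reference is therefore lower than 0.17. The hypoxia, glycolysis and Paneth medians given below, -0.94, -0.80 and -0.58, lay below -0.13 as well. With the ratios centred on the median of 0.17, 176 genes were higher and 162 lower, so the share of higher genes among the changed ones was 52.1% in place of 68.9%. The central 95% of genes lay between log2 ratios of -0.92 and 1.41. The 25th percentile was -0.10, so most genes lay above 0, and counts above 0 in the lists below are to be read against that. Differences of at least 4-fold were found in 67 genes that were higher and 12 that were lower. Among genes of the interferon, antigen presentation, RNA sensing and chemokine lists, 39 of 77 were higher and 1, Ifitm6, was lower. Outside these lists 202 of 5168 genes were higher (3.91%) and 108 were lower (2.09%). Thus 202 of the 241 higher genes and 108 of the 109 lower genes lay outside the interferon side, and 124 of the higher and 56 of the lower genes belonged to none of the lists used here.

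**Figure D1:**
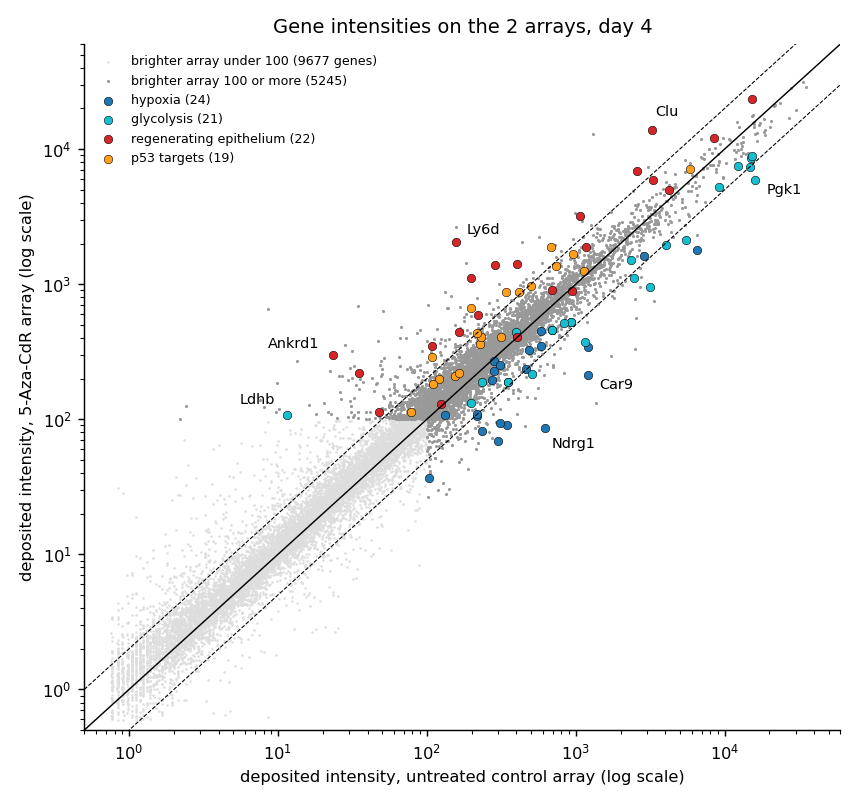
Deposited intensity of each gene in the untreated control (x axis) and with 5-Aza-CdR (y axis), both on log scales, with 1 point per gene. The solid line marks equal intensities and the dashed lines a 2-fold difference. Of the colored lists, none of 24 hypoxia genes lies above the line of equality, and all 19 p53 targets do.

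The clearest decrease concerned genes that cells switch on when oxygen is scarce. Hypoxia-inducible factors (HIF) bind short elements with the core ACGTG near such genes, and their targets carry out glycolysis, pH control, angiogenesis and collagen maturation. Of 24 hypoxia genes at the intensity of 100, 10 were at least 2-fold lower and 0 were higher, and all 24 had a log2 ratio below 0. The median log2 ratio was -0.94, against 0.17 over all genes. Over all 40 measured members, dim ones included, the median was -0.71, and 2 of 40 lay above 0.

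Ndrg1, a stress gene that hypoxia induces, went from 620.5 in the untreated control to 86.0 with 5-Aza-CdR, 7.21-fold lower. Car9, the carbonic anhydrase that exports acid from hypoxic cells, had 1210 and 213, 5.68-fold lower. Ankrd37, an ankyrin repeat protein, had 302.6 and 68.9, a log2 ratio of -2.14. These 3 genes showed the strongest decreases of the list, and the prolyl hydroxylases that feed back on HIF were lower as well. Egln3 had 1202 and 342, 3.51-fold lower, and Egln1 had 216 and 106, a log2 ratio of -1.03. Ero1l (Ero1a), an oxidase that forms disulfide bonds in the endoplasmic reticulum, had 348 and 90.4. The mitochondrial protein gene 2310056P07Rik (Fam162a) was the brightest of the list, with 6536 and 1801. The collagen prolyl hydroxylases P4ha1 and P4ha2 and the lipoprotein receptor Vldlr completed the 10, with log2 ratios of -1.50, -1.53 and -1.71. Vegfa, the angiogenic factor, was just too dim to be counted, with 88.7 in the control and 21.9 with 5-Aza-CdR, and is named here because of its values. At the other end of the list, Bhlhb2 differed least, with 282 and 268.

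Glycolysis showed the same direction. Of 21 glycolytic genes, 3 of which also belong to the hypoxia list, 7 were at least 2-fold lower and 1 was higher, and the median log2 ratio was -0.80, with -0.78 over all 25 measured members. Aldolase C (Aldoc) had an intensity of 3156 in the control and 959 with 5-Aza-CdR, 3.29-fold lower. Phosphofructokinase (Pfkp) had 1162 and 375, and phosphoglycerate kinase (Pgk1) had 16081 and 5912. Pyruvate kinase, listed as Pkm2 (Pkm), had 5493 and 2107. The reference gene Gapdh, itself a glycolytic enzyme, was among the lower genes, with 506 and 218, a log2 ratio of -1.22, whereas Actb, with 15299 and 17700, and Ppia, with 27848 and 28374, were close to the median gene. The 2 subunits of lactate dehydrogenase went in opposite directions. Ldha had 15248 and 8888, a log2 ratio of -0.78, and Ldhb had 11.4 and 108, a log2 ratio of 3.24. Genes named for hypoxia or glycolysis together numbered 42, of which 17 were lower and 1, Ldhb, was higher.

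The untreated control was the highest of the 4 arrays for 23 of the 24 hypoxia genes and 18 of the 21 glycolytic genes. Intensities summed over the measured hypoxia genes reached 20105 without treatment, 8635 after 5-Aza-CdR, 6093 in the control shRNA culture and 5759 in the Dnmt1 knockdown culture. Those of the glycolytic genes were 105457, 54412, 19083 and 16502 in the same order. The control shRNA culture lay below the treated culture for 19 of the 24 hypoxia genes, Car9 among them with 26.6. Ndrg1, at 307, and Vldlr, at 245, lay between the treated culture and the untreated control, and Ero1l, at 457, lay above both. The part of this difference between control cultures in the result was not tested.

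Promoters of these genes are shown to let a reader see where the HIF core lies relative to the start of transcription. The windows are RefSeq sequences of GRCm38.p6, 250 bases before to 50 bases after the start, and 1 window was taken per gene, the one listed first. Capitals mark ACGTG or its reverse complement CACGT.
Car9, chr4:43506776-43507075, plus strand: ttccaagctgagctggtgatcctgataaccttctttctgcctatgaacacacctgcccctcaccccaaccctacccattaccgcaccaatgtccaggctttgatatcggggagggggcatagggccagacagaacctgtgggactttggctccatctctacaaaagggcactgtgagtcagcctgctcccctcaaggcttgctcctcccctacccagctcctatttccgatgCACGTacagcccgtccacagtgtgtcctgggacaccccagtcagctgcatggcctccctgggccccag
Ankrd37, chr8:45999801-46000100, minus strand: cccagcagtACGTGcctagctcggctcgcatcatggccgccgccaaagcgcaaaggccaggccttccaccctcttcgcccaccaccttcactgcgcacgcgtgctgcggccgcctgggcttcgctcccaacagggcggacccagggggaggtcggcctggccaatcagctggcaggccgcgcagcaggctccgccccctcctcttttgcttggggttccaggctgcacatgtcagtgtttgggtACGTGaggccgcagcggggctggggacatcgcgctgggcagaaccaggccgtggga
2310056P07Rik (Fam162a), chr16:36071512-36071811, minus strand: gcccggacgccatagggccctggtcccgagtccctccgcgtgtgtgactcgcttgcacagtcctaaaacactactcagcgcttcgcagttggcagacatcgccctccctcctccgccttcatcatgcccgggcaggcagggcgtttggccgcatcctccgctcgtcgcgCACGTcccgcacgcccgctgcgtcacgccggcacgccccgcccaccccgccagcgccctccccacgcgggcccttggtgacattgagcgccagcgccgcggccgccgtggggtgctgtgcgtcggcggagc
Pgk1, chrX:106186850-106187149, plus strand: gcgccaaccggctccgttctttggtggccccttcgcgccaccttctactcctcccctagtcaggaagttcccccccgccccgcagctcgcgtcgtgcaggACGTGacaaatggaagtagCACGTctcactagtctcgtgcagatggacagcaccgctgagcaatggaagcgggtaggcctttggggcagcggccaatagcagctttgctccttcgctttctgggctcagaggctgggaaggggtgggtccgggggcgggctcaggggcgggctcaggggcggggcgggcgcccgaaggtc

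The core appeared once in the Car9 window, starting 18 bases before the start site, and 2 times each in the windows of Ankrd37 and Pgk1. Of 21 hypoxia genes with a window, 14 (66.7%) held ACGTG on either strand, against 27.2% of the 4307 genes of at least 100 with a window and 19.7% of all 27025 windows. Among the 14 genes with the core the median log2 ratio was -1.26 and 8 were at least 2-fold lower. Among the 7 genes without it the median was -0.74 and 1 was at least 2-fold lower. A match is a description of these letters in this window, and it does not show that a factor bound there.

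Products of secretory cells were lower for some of the brightest genes. The goblet cell genes Spink4, a protease inhibitor, and Tff3, a trefoil peptide that protects the mucosa, had 2515 and 333 and 3362 and 757, in the control and with 5-Aza-CdR respectively. Guca2a, the hormone guanylin, had 237 and 80.4. These 3 of 7 goblet cell genes were lower and 0 were higher, with a median of -0.76, but over all 26 measured goblet genes the median was -0.13 and 10 lay above 0. Muc2, the main mucin, was too dim to be counted, with 75.7 and 54.6. Paneth cells secrete antimicrobial proteins at the crypt base. Of 11 Paneth cell genes, 3 were lower and 0 higher, with a median of -0.58, the same over all 13 measured members, and 4 of the 11 lay above 0. Clps (colipase) had 701 and 244, Ang4, an antimicrobial angiogenin, had 2717 and 946, and Guca2b (uroguanylin) had 248 and 93.7. All 3 angiogenins on the array, Ang2, Ang4 and Ang5, were lower, a family picked after its values were seen. The α-defensin Defcr5 (Defa5), with 9729 and 6232, and the protease Mmp7, with 13836 and 9240, were less changed, with log2 ratios of -0.64 and -0.58. Nupr1, a stress-induced chromatin protein, went the other way, with 115 and 226, as did the lipase Pnliprp2, with 1279 and 1853. The measured Paneth cell genes summed to 46654 in the untreated control, 34705 with 5-Aza-CdR and 6878 in the control shRNA culture. Those of goblet cells summed to 8236, 2831 and 4056 in the same order. For Paneth cell genes the 2 control cultures thus differed more than the treated culture did from its control. The part of that difference in the result was not tested.

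Enteroendocrine genes moved in both directions. Neurog3, the transcription factor that specifies this lineage, had 164 in the control and 48.0 with 5-Aza-CdR, and Reg4, a secreted lectin of these cells, had 455 and 88.7. Carboxypeptidase E (Cpe), which matures peptide hormones, had 156 and 502, and the hormone neurotensin (Nts) had 220.2 and 475. The median of the 7 genes was -0.39, with 3 lower and 2 higher, but it was 0.17, the level of the median gene, over all 29 measured members. The third lower gene was Vim, the intermediate filament vimentin, with 2544 and 560, which is also a mesenchymal marker and was at 39.7 in the control shRNA culture. Of 30 enterocyte genes with a value, 7 reached the intensity of 100, and 1 of them, the apolipoprotein Apoc2, was lower.

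Some enzymes of lipid synthesis and drug metabolism were lower, whereas lipid uptake and oxidation did not shift. Of 10 genes of lipid uptake and oxidation none passed 2-fold, and their median was 0.18, the level of the median gene. Of 23 genes of sterol and fatty acid synthesis, 5 were lower and 0 higher, with a median log2 ratio of -0.49, and 4 of 23 lay above 0. Over all 25 measured members the median was -0.51. The desaturases Scd1, with 1197 and 524, and Scd2, with 4501 and 2218, introduce double bonds into fatty acids. Nsdhl, Idi1 and Hsd17b7, of cholesterol synthesis, had log2 ratios of -1.28, -1.05 and -1.03, and Cyp51, at -0.99, lay just inside 2-fold. Srebf2, the master regulator of the pathway, was close to the median gene with 178 and 190.5. The lowest ratio of all genes belonged to a carboxylesterase that hydrolyses ester drugs, Ces6 (Ces2a), with 1369 and 132, 10.4-fold lower. Aldh1b1, a mitochondrial aldehyde dehydrogenase of stem and progenitor cells, had 1723 and 292. In the list of xenobiotic metabolism 6 of 15 genes were lower and 3 were higher, with a median of -0.56. Over all 53 measured members the median was -0.16, and 22 lay above 0. Cyp1b1, a target of the aryl hydrocarbon receptor, had 32.4 and 144, and the receptor itself, Ahr, had 221 and 505. Aldh1a1, which makes retinoic acid, had 47.3 and 377. The other lower genes with the 20 lowest ratios included Tgfbi, a matrix protein, with 135 and 28.1, Serpinf2, the plasmin inhibitor, with 141 and 30.7, and the urea transporter Slc14a1, with 118 and 30.2.

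**Figure D2:**
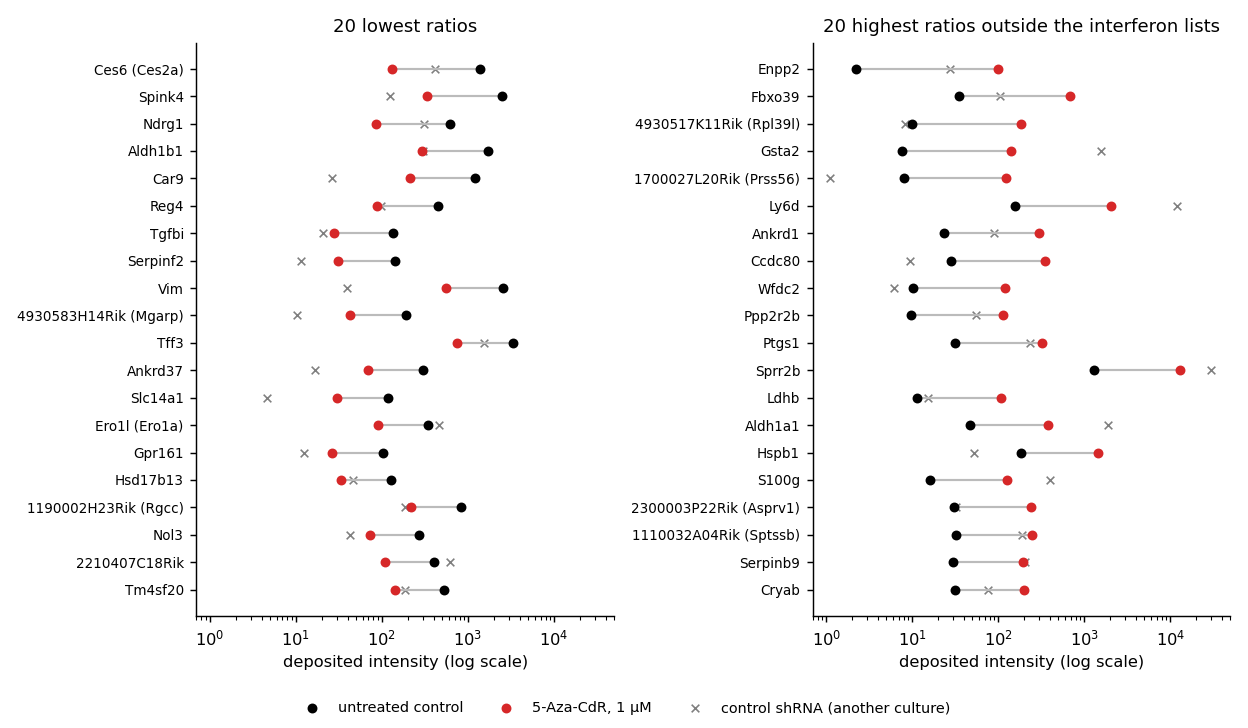
Deposited intensity, on a log scale, of the genes with the 20 lowest and 20 highest ratios of 5-Aza-CdR to untreated control, the latter outside the interferon lists. Black points are the untreated control, red points 5-Aza-CdR and grey crosses the control shRNA culture, with 1 array each. Ces6 heads the lower genes at 1369 against 132, and the cross of several genes, such as Car9 at 26.6, lies beyond both points.

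Of the lists outside the interferon side, that of regenerating epithelium held the most higher genes. After injury the intestinal epithelium turns on annexins, Ly6 family proteins, clusterin and targets of the Hippo pathway effector YAP. Of 22 such genes, 13 were higher after 5-Aza-CdR and 0 were lower. The median log2 ratio was 1.41 at the intensity of 100 and 1.28 over all 40 measured members, of which 37 lay above 0. Ly6d, a surface protein of stratified and injured epithelium, had 157 in the control and 2069 with 5-Aza-CdR, 13.2-fold higher. Clu, the secreted chaperone clusterin that marks revival stem cells, had 3258 and 13738. Anxa3 had 199 and 1118, Anxa1, the anti-inflammatory annexin, had 1075 and 3185, and mesothelin (Msln) had 289 and 1392. Several of these genes were thus bright already in the control. Among targets of YAP and of the actin-regulated factor SRF, put together after their values were seen, 4 of 10 were higher and 0 lower. Their median was 0.77, and 0.43 after normexp background correction with quantile normalization. Ankrd1, a nuclear cofactor, had 23.3 and 299, and Ctgf (Ccn2), a matricellular growth factor, had 35.1 and 218. The related Cyr61 (Ccn1) had 165 and 439, and the actin cross-linker Flna had 287 and 594. S100a6, one of the 10 brightest genes, differed less, with 15331 and 23320.

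The regenerating list summed to 43579 without treatment, 82756 after 5-Aza-CdR, 48008 in the control shRNA culture and 59495 in the Dnmt1 knockdown culture, so the treated culture was the highest of the 4 in sum. It was also the highest for 17 of the 22 genes. Ly6d was at 11963 in the control shRNA culture, far above the treated culture, and Anxa3 was at 1992. Clu, at 2860, and Ankrd1, at 88.7, were lower there than with 5-Aza-CdR.

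Genes of matrix and squamous epithelium showed related changes. Of 18 matrix and protease genes, 7 were higher and 0 lower, with a median of 0.82, and 17 of 18 lay above 0. Over all 48 measured members the median was 0.63. Fibronectin (Fn1) had 145 and 813, osteopontin (Spp1) had 405 and 1406, laminin β3 (Lamb3) had 221 and 590, and the protease inhibitor Serpine2 had 26.1 and 160. The exception was Mmp7. In squamous epithelium, where cells form a cornified envelope, 5 of 13 genes were higher and 1 lower, and the median over all 39 measured members was 0.49. Sprr2b, a small proline-rich protein of that envelope, had 1306 and 12841, 9.83-fold higher, and S100a14 had 112 and 396. Pkp1, a desmosome protein, had 161 and 73.6. The squamous genes summed to 4219 without treatment, 18591 after 5-Aza-CdR and 45372 in the control shRNA culture, and by this sum the untreated control was the lowest array. Most of the control shRNA sum came from Sprr2b, at 29654, and Ly6d, at 11963. Gene by gene the order was mixed. The control shRNA culture lay above the untreated control for 6 of the 13 genes, and the untreated control was the highest array for 3. Of 6 mesenchymal markers, Fn1, Ctgf, Cyr61 and the secreted protein Ccdc80, with 28.1 and 354, were higher, while Vim was lower and Fbln1, a matrix glycoprotein, had 148 and 114. The median of these 6 was 1.95, and 0.43 over all 33 measured members. The collagens Col1a1, Col1a2 and Col3a1 stayed at 20.2 or less on both arrays.

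p53 targets moved together by smaller amounts. The transcription factor p53 responds to DNA damage. All 19 of its targets at the intensity of 100 had log2 ratios above 0, and 33 of 35 did over all measured members. The median was 0.80, or 0.57 with normexp, and 5 of 19 were at least 2-fold higher. Ccng1 (cyclin G1) had 684 in the control and 1897 with 5-Aza-CdR, the kinase Plk2 had 199 and 672, and Trp53inp1 had 338 and 873. Ddit4l had 108 and 291, and Perp, a desmosome protein, had 414 and 871. These 5 genes were above the untreated control in the control shRNA culture too, with Ccng1 at 942 and Perp at 998. The sum over the measured p53 targets was not, with 11923 there and 12999 in the untreated control. The CDK inhibitor p21, Cdkn1a, came just short of 2-fold, with 502 and 971, a log2 ratio of 0.95, as did Wig1 (Zmat3), at 0.99. Cell cycle and replication genes did not shift beyond the median gene. None of 50 passed 2-fold in either direction, their median was 0.20, and the proliferation marker Mki67 had 328 and 288. Of 14 CDK inhibitors and growth arrest genes, Cdkn1a included, 3 were higher, Klf4, with 101 and 266, Mxd4 and Gadd45b.

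**Figure D3:**
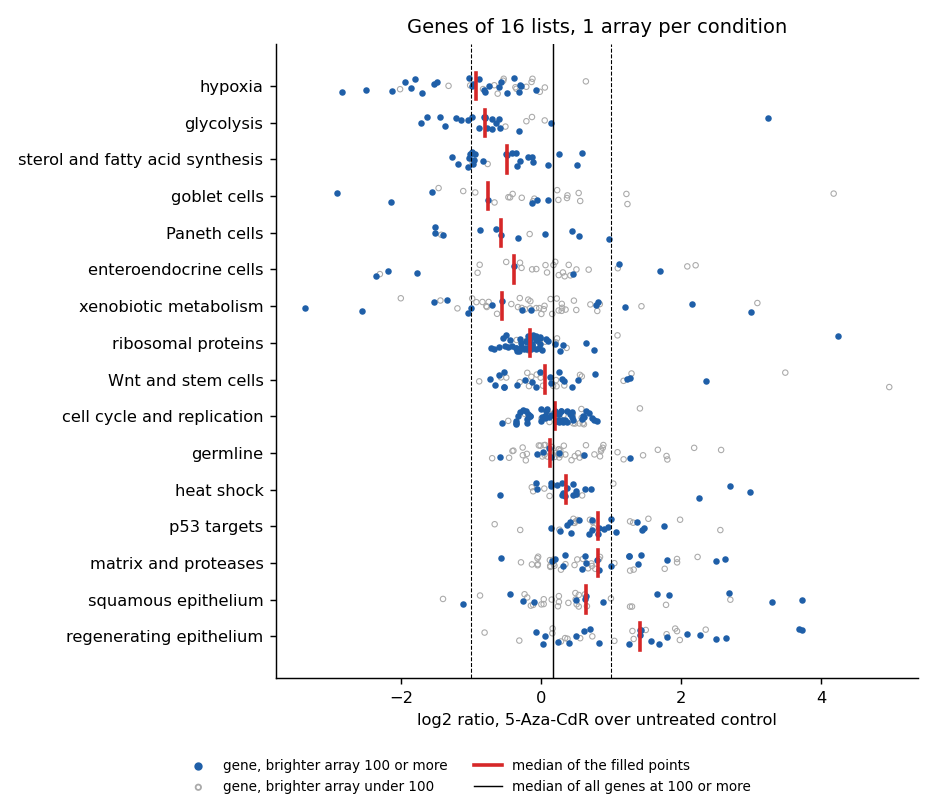
Log2 ratio of 5-Aza-CdR over untreated control for the genes of 16 lists. Filled points had an intensity of at least 100 on the brighter array and open points did not, red bars are medians of the filled points, the solid line is the median of all such genes (0.17) and dashed lines mark 2-fold. Hypoxia, at a median of -0.94, and regenerating epithelium, at 1.41, lie at the ends of the lists drawn, and cell cycle genes, at 0.20, lie on the line.

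Of the chaperones, 3 small heat shock proteins were higher. Hspb1 (HSP27), which prevents protein aggregation and binds actin, had 183 and 1445, 7.91-fold higher. αB-crystallin (Cryab) had 31.2 and 202, and Hspb8 had 42.6 and 203. No other of the 20 heat shock genes passed 2-fold, and the list's median was 0.35. The small heat shock proteins Hspb6 and Hspb7 did not share the difference, with log2 ratios of -0.06 and -0.08. The gene 2900042B11Rik (Hspb11), which carries the family name, was lower, with 464 and 206. The inducible chaperones Hsp90aa1 and Dnajb1, with log2 ratios of 0.50 and 0.50, and the constitutive Hspa8, at 0.22, were within 2-fold. Of 30 genes of the endoplasmic reticulum stress and amino acid response, 3 were higher. Chac1, which degrades glutathione, had 49.6 and 235, Atf5 had 49.3 and 210.0, and Ddit3 (CHOP) had 91.2 and 190. All 3 were brighter still in the control shRNA culture, at 789.5, 257.4 and 403.1. The median of the 30 genes was 0.39, or 0.19 with normexp. The 1 lower gene of that list was Vldlr.

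Some of the largest ratios belonged to genes that were dim in the control. Enpp2 (autotaxin), which makes lysophosphatidic acid, had 2.21 and 101. Its control value was not above the 95th percentile of the spots without a probe, 2.42. Counted from that percentile, Enpp2 was 41.6-fold higher. This is not a lower limit, because some spots without a probe were brighter than that percentile. Fbxo39, an F-box protein gene, had 34.6 and 685, 19.8-fold higher. 4930517K11Rik (Rpl39l), a paralog of the ribosomal protein gene Rpl39 that is best known from testis, had 9.81 and 186, a log2 ratio of 4.24. It was the only 1 of 50 ribosomal protein genes that was 2-fold changed, and the median of the 50 was -0.17. The probe sequences were not used here, so signal from near-identical copies, as in the ribosomal protein, defensin, angiogenin, Ly6 and Sprr2 families, cannot be told apart. Gsta2, a glutathione transferase, had 7.55 and 140, and the serine protease gene 1700027L20Rik (Prss56) had 8.03 and 124. Ptgs1 (COX-1), a prostaglandin synthase of tuft cells, had 31.6 and 321, and Wfdc2, a secreted protease inhibitor, had 10.2 and 119. Low control values make such ratios sensitive to background. With 25 added to both intensities, the log2 ratio of Enpp2 was 2.21 and that of Rpl39l was 2.60, and normexp gave 1.57 for Enpp2. Of the 241 higher genes, 18 had a control intensity under 25 and 111 had one of at least 100. Gsta2 was at 1544 in the control shRNA culture, and Rpl39l was at 8.15.

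Genes directly tied to DNA methylation had list medians close to that of all genes at the intensity of 100, which leaves out genes that were dim on both arrays. Dnmt1 itself had 239 and 368, a log2 ratio of 0.62. The study itself states that Dnmt1 expression was significantly lower at the times of RNA extraction, so this array value differs from its statement. The reason was not tested. Of 21 genes of the methylation machinery, 2 were higher, the methyl-CpG binding protein Mbd1, with 235 and 473, and Gadd45b, with 278 and 575, and the median was 0.31, or 0.15 with normexp. None of 13 imprinted genes passed 2-fold. Of 8 germline genes at the intensity of 100, 1 was higher, the meiotic cohesin Rec8L1 (Rec8), with 124 and 298, and the median was 0.12. Most germline genes were dim, and 56 of 72 with a probe had a value on both arrays. Over all 56 measured members 44 lay above 0, with a median of 0.25. The largest germline ratios were in dim genes, Tex19 with 14.3 and 84.9 and Dazl, an RNA-binding protein of germ cells, with 3.37 and 15.3, both named because of their values. Of 15 genes known as methylated in tumors, 3 were higher and 1 lower. They included Mal, with 20.4 and 131, Cyp1b1 and Rassf1, with 85.9 and 177, and the lower one was Vim. Over all 53 measured members of that list the median was 0.37, and 33 lay above 0, while the median of all genes with both values was 0.165.

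In Wnt signaling, which Apc loss activates, the median of 22 genes was 0.05, and it lay between -0.11 and -0.26 with normexp, quantile normalization or centring. Of these genes 3 were higher, the ligands Wnt10a, with 85.8 and 438, and Wnt6, with 445 and 1044, and the ion transporter Slc12a2, with 592 and 1424. The stem cell marker Lgr5 had 292 and 203, and the Wnt feedback gene Nkd1 had 4977 and 2996, log2 ratios of -0.53 and -0.73, both within 2-fold. Groups that served as a comparison hardly moved. Of 74 genes of oxidative phosphorylation, 1 was higher and 1 lower, with a median of -0.06. None of 54 numbered zinc finger genes and none of 66 mitochondrial ribosomal protein genes passed 2-fold, with medians of 0.18 and 0.02.

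On the interferon side, 29 of 48 interferon response genes were higher and 1, Ifitm6, was lower, with a median of 1.36, which fell to 0.81 with normexp. The spread within the list was wide. Oas1a, a sensor of double-stranded RNA, had 8.51 and 658, whereas Ifitm1 had 21734 and 21318. The MHC class I light chain B2m had 3312 and 14585, and 5 of 12 genes of class I presentation were higher. The promoter windows were searched on both strands for GAAANNGAA, part of the interferon response element, shortened after a first search with a longer form. It occurred in 10 of 30 (33.3%) interferon-side higher genes and in 16 of 157 (10.2%) of the other higher genes. It was in 6.6% of all genes with a window and 8.6% of all windows. Other motifs were also more frequent in the same 30 windows. GAANNTTC, of heat shock elements, was in 8, the TATA box TATAAA in 9 and the AP-1 site TGANTCA in 4. These were in 5.8%, 7.4% and 4.9% of all genes with a window. The TEAD, hypoxia and sterol motifs were not more frequent there, so the difference was not specific to the interferon motif.

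The changed genes, on the interferon side and outside it, had promoters with fewer CpG than all genes of at least 100. CpG is the dinucleotide at which mammalian DNA is methylated, and most promoters of active genes are rich in it and unmethylated. The median window held 21 CpG over the 4307 genes with a window, 11 over the 30 higher genes in the interferon lists, 17 over the 157 higher genes outside them and 13 over the 84 lower genes outside them. Windows with 10 or more CpG made up 87.0% of those of the 4307 genes, and 60.0%, 66.9% and 54.8% of these 3 sets. Over all 27025 windows, those of genes under 100 included, the median was 7 CpG and 43.9% held 10 or more. The changed genes thus lay between all windows and the genes of at least 100. Outside the interferon lists, among 228 genes with 0 to 4 CpG, 11.84% were higher and 7.89% lower, and among 2466 genes with 20 and over, 2.68% and 1.22% were. The decline was seen in both directions, and the classes differed little in brightness, with medians of 8.06 and 8.22 for the log2 of the brighter intensity. Changed genes were found in every class, 66 higher and 30 lower ones among those with 20 and over. Windows of 2 higher genes that were dim in the control and of the gene with the lowest ratio are shown, with CG in capitals.
4930517K11Rik (Rpl39l), chr16:10169978-10170277, plus strand: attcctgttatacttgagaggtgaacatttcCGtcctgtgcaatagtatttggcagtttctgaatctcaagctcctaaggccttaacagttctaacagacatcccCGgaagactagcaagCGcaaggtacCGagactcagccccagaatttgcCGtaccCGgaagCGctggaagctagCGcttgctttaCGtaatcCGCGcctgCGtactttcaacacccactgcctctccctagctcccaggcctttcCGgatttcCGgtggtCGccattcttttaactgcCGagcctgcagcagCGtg
Fbxo39, chr11:72314194-72314493, plus strand: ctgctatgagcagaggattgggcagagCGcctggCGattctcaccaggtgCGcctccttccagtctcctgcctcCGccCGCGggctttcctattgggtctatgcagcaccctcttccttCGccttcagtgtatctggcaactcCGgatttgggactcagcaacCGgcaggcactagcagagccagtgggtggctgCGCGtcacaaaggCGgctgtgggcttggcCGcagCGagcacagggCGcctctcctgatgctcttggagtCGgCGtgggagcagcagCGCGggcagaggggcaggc
Ces6 (Ces2a), chr8:104733753-104734052, plus strand: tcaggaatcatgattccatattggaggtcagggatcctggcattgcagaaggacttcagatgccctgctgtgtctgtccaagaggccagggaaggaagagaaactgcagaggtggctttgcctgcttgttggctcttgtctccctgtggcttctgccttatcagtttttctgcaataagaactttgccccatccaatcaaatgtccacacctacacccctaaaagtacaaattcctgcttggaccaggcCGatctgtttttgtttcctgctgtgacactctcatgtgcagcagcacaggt

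The Rpl39l and Fbxo39 windows held 17 and 19 CpG, and that of Ces2a held 1. The other motifs searched on both strands were AP-1 (TGANTCA), found in 10.8% of the higher genes outside the interferon lists against 4.9% of all genes with a window, the TEAD site GGAATG (16.6% against 12%) and the TATA box TATAAA (12.1% against 7.4%). These 3 motifs were in 7.9%, 14.6% and 14.2% of all windows. Among the 14 regenerating genes with a window, 4 held GGAATG and 6 held TATAAA. GAANNTTC, of heat shock elements, was in 7.6% against 5.8% and 8.0% of all windows. TCACNCCAC, of sterol response elements, was in 0 of 18 sterol genes against 1.0% and 1.2% of all windows. With a motif this rare, 18 windows are too few to show a difference.

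**Figure D4:**
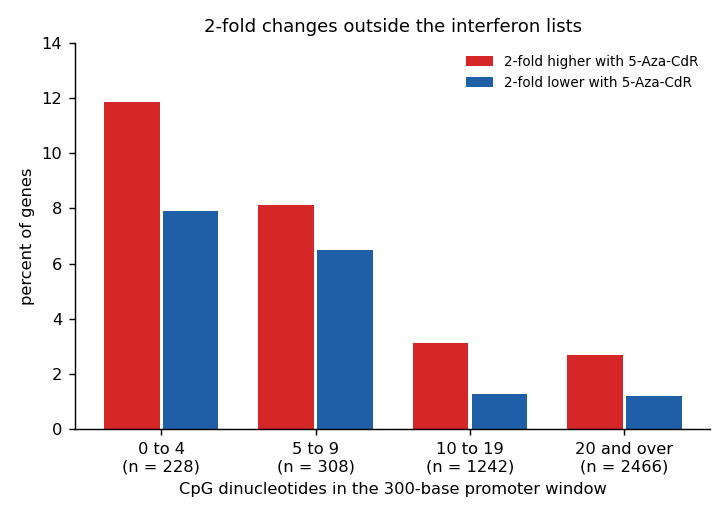
Percent of genes outside the interferon lists that were at least 2-fold higher (red) or lower (blue) with 5-Aza-CdR, by the number of CpG in the promoter window, with the number of genes under each class. The share of higher genes is 11.84% with 0 to 4 CpG and 2.68% with 20 and over, and the share of lower genes 7.89% and 1.22%.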

How the data were processed

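RNA of each culture was hybridized to 1 Toray array and read in 1 color (Cy5). The intensity values that the authors deposited are spot signals from which the mean over blank spots was subtracted, scaled to a median of 25 per array, with values near the blank left empty. This was recomputed from the scanner intensity files deposited by the authors, and every value with both sides agreed within the tolerance of 1% or 0.02 units. The software that read the arrays is not given in the sources used here. The labels name an RNeasy kit for the extraction and the methods a mirVana kit.

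The log2 ratio of 5-Aza-CdR over untreated control was computed per gene with no pseudocount. For the 147 genes with more than 1 probe, the probe of highest mean intensity stood for the gene. Symbols are those of the array annotation, and 16384 of 16446 matched RefSeq (GRCm38.p6), whose current symbol is given in parentheses. The remaining 6842 probes were unnamed, and 1401 of them reached 100, of which 80 (5.71%) were higher and 31 (2.21%) lower.

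Genes were named when they had the 20 highest or 20 lowest ratios outside the interferon, class I, RNA sensing and chemokine lists, the 6 largest differences of a list, or the 10 highest intensities, or were Dnmt1, Lgr5, Mki67, Cdkn1a, Trp53, Actb, Gapdh or Tbp. Genes with a value on 1 array were named by the 5 highest intensities on either array. Other genes in the text were named because of their values or as list members of known function. The members, lists and rules were chosen with earlier results of these data known, and the motifs, CpG classes and 9 symbol families after the values were seen, and the interferon and heat shock motifs were shortened after a first search with longer forms.

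Alternatives were a pseudocount of 25, normexp (offset 50) with quantile normalization over 4 arrays in limma 3.58.1 and R 4.3.3, quantile normalization over the 2 arrays, centring on the median gene or within the 24 array blocks, floors of 50, 200 and none, limits of 1.5-fold and 3-fold, and the mean of the probes. Centring by block and a floor on the mean of both intensities were chosen after seeing the data. Python 3.11.15 with numpy 2.4.6, pandas 2.3.3 and matplotlib 3.10.9 was used, and the steps were tested on simulated data.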

Additional observations from a re-analysis of the deposited data

How the results depend on the processing

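Of the counts of higher and lower genes (241 and 109, 68.9% higher), those below moved beyond 1.5 times, or the share by over 10 percentage points, and the cause was not tested except where fewer or more genes were counted by construction. No intensity floor gave 826 and 300, a limit of 1.5-fold 811 and 297, a limit of 3-fold 100 and 35, and a floor of 200 gave 156 higher genes. Normexp with quantile normalization over 4 arrays gave 126 higher genes and 89 lower, with 58.6% higher. The share of higher genes was 53.2% with quantile normalization over the 2 arrays, 52.1% after centring on the median gene and 51.5% after centring within the array blocks, whose medians ran from -0.08 to 0.47. Of the genes called on the deposited values, 0 changed direction in any alternative, but most alternatives could not have turned a sign. Floors, fold limits and a pseudocount leave the sign as it is, and centring shifted ratios by less than the 2-fold limit. Normexp kept 124 of the 241 higher and 84 of the 109 lower. A floor on the mean of both intensities, which does not choose a gene by its brighter array, kept 191 and 94. The median log2 ratio took the other sign in at least 1 alternative for 19 of 63 lists. In 16 of these it was at most 0.21 in size, inside the SD of 0.29 between probes of a gene, as for Wnt and stem cell, imprinted, germline and reference genes. The other 3 were enteroendocrine genes (0.17) and antimicrobial and secreted proteins (0.01) with no floor, and claudins (-0.17) at a floor of 50. The list of genes methylated in tumors went from 0.19 to -0.32 at a floor of 200, and aldehyde dehydrogenases went from -0.15 to 0.20 with no floor. Normexp moved 11 list medians by more than that SD. No paired analysis was possible because each condition had 1 array. Depth, in the sense of signal over blank, limits the ratios of the 9677 genes under 100, and no alternative here measures the spread between cultures.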

Other observations

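Some genes had a value on only 1 of the 2 arrays. Among named probes, 641 had a value only with 5-Aza-CdR and 91 only in the untreated control, whereas 820 had none on either. Of the first kind, Ifi44, an interferon-induced gene, had an intensity of 112 with 5-Aza-CdR. It had no value in the control, where the spots without a probe had a 95th percentile of 2.42. C130073F10Rik had 29.4, Asz1, a germ cell gene of the piRNA pathway, had 15.7, and Sp100, a nuclear body protein, had 13.9. Asz1 had no value in the control shRNA or the Dnmt1 knockdown culture either. Ldb1 had 364 with 5-Aza-CdR, but its control spot was marked as unusable by the scanner, so no ratio is given. Of the second kind, the highest were the olfactory receptor Olfr1495 with 11.9, Zcchc7, whose spot was marked unusable on the treated array, with 5.63, 4930504O13Rik (Lypd9) with 3.85, Slc26a3, the chloride exchanger of colonocytes, with 2.89 and Qprt with 2.21.

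Several families not described above held more than 1 gene that passed 2-fold. Of 7 Ly6 family genes, 4 were higher and 0 lower, and of 8 serpins 4 were higher and 1, Serpinf2, was lower. Serpinb9, which blocks granzyme B, had 29.7 and 195, and Serpinb11 had 178 and 533. Of 21 genes of LIM domain and focal adhesion proteins, 7 were higher and 0 lower, with a median of 0.56 (0.34 with normexp) and 20 of 21 above 0. The Ly6 and adhesion families were put together after their values were seen. Genes of the 2-fold class were found on every chromosome with at least 20 genes, between 2.66% (chromosome 8) and 6.96% (chromosome 1) of them higher, and 3.17% on the X chromosome.

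The higher and lower genes were found at all brightness levels. The share of higher genes was 4.84% among 1757 genes of 100 to 200 and 3.97% among the 126 genes of the brightest class, and that of lower genes was 1.59% and 3.17%. The median log2 ratio went from 0.20 to -0.13 between these classes. Near the limit of 2-fold, Csmd2 (log2 ratio 1.00) and Tmem127 (1.00) lay just inside and Wig1 (0.99) just outside. On the lower side, Adh7 (-1.01) lay just inside and Pgam1 (-0.99) just outside.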
